A study of Danio rerio with 16 samples.

Results

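The genes described here encode the subunits of the fast neurotransmitter receptors of the zebrafish, the ion channels that open when a transmitter binds. Members were taken by symbol from the gene count table: the AMPA (gria), NMDA (grin1 to grin3) and kainate (grik) receptors for glutamate, the GABA-A receptors (gabra, gabrb, gabrg, gabrd, gabrr and gabrz), the glycine receptors (glra and glrb) and the nicotinic acetylcholine receptors (chrna, chrnb, chrnd, chrne and chrng). This gave 73 of the 32520 genes in the table, and all 73 were among the 23555 genes that passed a filter on low counts. They comprise 8 AMPA, 12 NMDA and 4 kainate subunits, 20 GABA-A subunits, 7 glycine receptor subunits, 16 nicotinic subunits of the neuronal type and 6 of the muscle type (chrna1, chrnb1, chrnb1l, chrnd, chrne and chrng). The symbol pattern uses no measured value, but it was chosen with earlier results of these data known.

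Each of these receptors is a ring of subunits around a pore, and the subunits in the ring set how long the channel stays open, which ions pass and which drugs bind. Glutamate receptors carry most fast excitation in the vertebrate brain, and GABA-A and glycine receptors most fast inhibition. Nicotinic receptors work at the synapse between motor neuron and muscle and also on neurons. At the mammalian neuromuscular junction the fetal receptor holds a gamma subunit, which is replaced by an epsilon subunit as the synapse matures, while the alpha1, beta1 and delta subunits stay. Embryos at the stages sampled here already move, and their nervous system is growing rapidly.

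The libraries profile RNA from intact zebrafish embryos, either fbn3-/- or wild type (WT), taken at 2 or 1 days postfertilization (dpf), around the time the mutants first show heart and vessel defects. The gene, a fibrillin of the extracellular matrix, is called fbn2b in the sample labels and in the count table, where the mutants are fbn2b-/- and the controls fbn2b +/+. The mutant line carries a CRISPR/Cas9 frameshift allele backcrossed to the AB strain, and every library was made from a pool of 10 whole embryos with a stranded total RNA kit. Whether the embryos carried a fluorescent reporter is not given in the sources used here. There were 5 fbn3-/- and 3 WT libraries at 2 dpf and 3 fbn3-/- and 4 WT libraries at 1 dpf, labelled as biological replicates. In whole embryos, fewer cells of a type and less RNA per cell cannot be told apart.

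Total counts were 52451122 to 179887580 in fbn3-/- and 87748238 to 134038214 in WT libraries at 2 dpf, and 66070904 to 101620834 in fbn3-/- and 41473603 to 77233445 in WT libraries at 1 dpf. The 73 members took 0.0456% to 0.0829% of the counts in fbn3-/- and 0.0546% to 0.0783% in WT libraries at 2 dpf, and 0.0337% to 0.0376% in fbn3-/- and 0.0294% to 0.0438% in WT libraries at 1 dpf. The targeted transcript was lower in every fbn3-/- library, at 15.1 to 20.8 CPM (counts scaled to a common library total after TMM adjustment) against 164 to 239 CPM in WT at 2 dpf, and at 19.5 to 28.7 CPM against 103 to 337 CPM in WT at 1 dpf. Libraries were split into a lower-numbered and a higher-numbered run by the library numbers in the labels. The cut falls between consecutive numbers, at no gap, so the labels do not give it. Expression parts the same libraries, but as the labels give no cut, this is no independent support for it. On dimension 2 of a multidimensional scaling of expression (11.7% of the variance), lower-numbered libraries lay at 0.40 to 1.18 and higher-numbered ones at -1.40 to -1.01. The fbn3-/- libraries at 2 dpf were 3 lower-numbered and 2 higher-numbered, the WT libraries at 2 dpf 1 and 2, the fbn3-/- libraries at 1 dpf 3 and 0, and the WT libraries at 1 dpf 2 and 2. What the numbers stand for is not given, and the runs are unevenly spread over the groups. Values within the runs are therefore given beside the results on chrng and on the members as a whole. Among the other cell types a whole embryo holds, neurons and skeletal muscle bear most on these genes: none of 17 pan-neuronal markers was at 0 in any library.

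A gene was called changed when edgeR's quasi-likelihood test gave a false discovery rate (FDR) under 0.05 over all 23555 genes and the log2 fold change passed 1 in either direction, so that a member is judged against the same bar as every other gene. Fold changes are log2 values with their standard error (SE), and levels are CPM with their SD. CPM does not allow for gene length, so levels are compared between groups and not between genes. Zebrafish carry many of these genes as pairs of duplicates, and reads that 2 copies share could have been split between them in counting.

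The muscle-type receptor held the 1 member that differed between genotypes. The chrng transcript, the gamma subunit, had 6.30, 8.09, 6.55, 7.93 and 8.59 CPM in the 5 fbn3-/- libraries at 2 dpf, against 2.29, 3.07 and 2.71 CPM in the 3 WT libraries. Every mutant library lay above every WT library, and the lowest mutant value was above the highest WT value by more than either group's own SD. The means were 7.49 ± 1.01 CPM in fbn3-/- and 2.69 ± 0.387 CPM in WT (SD, n = 5 and 3), a 2.79-fold difference. The log2 fold change was 1.48 ± 0.28 (SE), with a 95% confidence interval of 0.93 to 2.02 by a normal approximation. The FDR by edgeR's quasi-likelihood test was 0.038, and chrng stood at place 42 of 23555 genes by p. The exact permutation test of chrng alone gave p = 0.0179, two-sided, the smallest that 5 libraries against 3 allow. The raw counts behind these values were 355 to 1455 in fbn3-/- and 199 to 380 in WT libraries. The log2 difference was 1.59 among the lower-numbered libraries (3 fbn3-/- and 1 WT) and 1.51 among the higher-numbered ones (2 and 2). The call is near the threshold: the fold change stayed between 1.38 and 1.55 over 17 alternative fits, but the FDR was 0.0934, 0.0845 and 0.0849 without fbn3-/- replicates 2, 4 and 5, and 0.116 and 0.255 without WT replicates 2 and 3.

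Setting this 1 call against the background, 0.136% of all genes were called higher in fbn3-/- at 2 dpf, 0.0425% were called lower and 0.178% were called in either direction. Of the 73 members 1 was called higher and 0 were called lower. Of the remaining muscle-type subunits, chrna1, chrnd and chrnb1 had fold changes near 0. The chrna1 transcript, the alpha subunit that binds acetylcholine, had 44.4, 54.4, 52.8, 55.6 and 43.0 CPM in fbn3-/- at 2 dpf, against 44.2, 55.2 and 42.7 CPM in WT (log2 fold change 0.08). The chrnd transcript, the delta subunit, had 20.8, 27.5, 27.9, 26.3 and 20.2 CPM in fbn3-/-, against 26.8, 26.2 and 19.9 CPM in WT (0.02, 95% confidence interval -0.29 to 0.32). The chrnb1 transcript, the beta subunit, had 22.1, 29.2, 29.8, 27.5 and 18.6 CPM in fbn3-/-, against 24.1, 31.5 and 22.5 CPM in WT (-0.03, interval -0.34 to 0.27). For these 3 partners the genotypes overlapped fully. The intervals of chrnd and chrnb1, by the same approximation, leave room for differences of at least about 0.3 on the log2 scale. The chrnb1l transcript, named as beta1-like in the table, had 0.870, 1.30, 1.32, 0.567 and 0.685 CPM in fbn3-/-, against 0.979, 1.06 and 1.11 CPM in WT (-0.22).

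The chrne transcript, the epsilon subunit, had 33.5, 37.5, 43.8, 43.0 and 25.8 CPM in fbn3-/- at 2 dpf, against 25.3, 33.3 and 23.9 CPM in WT. The groups overlapped, with a log2 fold change of 0.42 ± 0.31 (SE) and an edgeR FDR of 0.659. Since gamma and epsilon take the same place in the receptor, their ratio was also compared library by library. The ratio of chrng to chrne CPM was 0.188, 0.216, 0.149, 0.185 and 0.332 in fbn3-/- at 2 dpf, against 0.0907, 0.0921 and 0.113 in WT. The mean log2 ratio was -2.28 ± 0.43 in fbn3-/- and -3.35 ± 0.18 in WT (SD, n = 5 and 3), a difference of 1.07, and the groups did not overlap (exact permutation p = 0.0179, 0.0625 after Benjamini-Hochberg adjustment over 28 ratio tests). The exact p was 0.0571 without fbn3-/- replicate 1 or 4. Against chrna1, chrnd and chrnb1 the log2 ratio of chrng was higher in fbn3-/- by 1.40, 1.46 and 1.52, with the same exact p and adjusted p. As these partners had fold changes near 0, their ratios restate the chrng difference and are no separate evidence for it. The ratio to chrne uses the same chrng values in the same libraries, and chrne itself was not called, so it is no independent test either. The log2 ratios of chrne, chrnd and chrnb1 to chrna1 differed by 0.33 (exact permutation p = 0.0536), -0.07 and -0.12. The difference in the log2 ratio of chrng to chrne was 1.01 in lower-numbered and 1.28 in higher-numbered libraries.

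**Figure D1:**
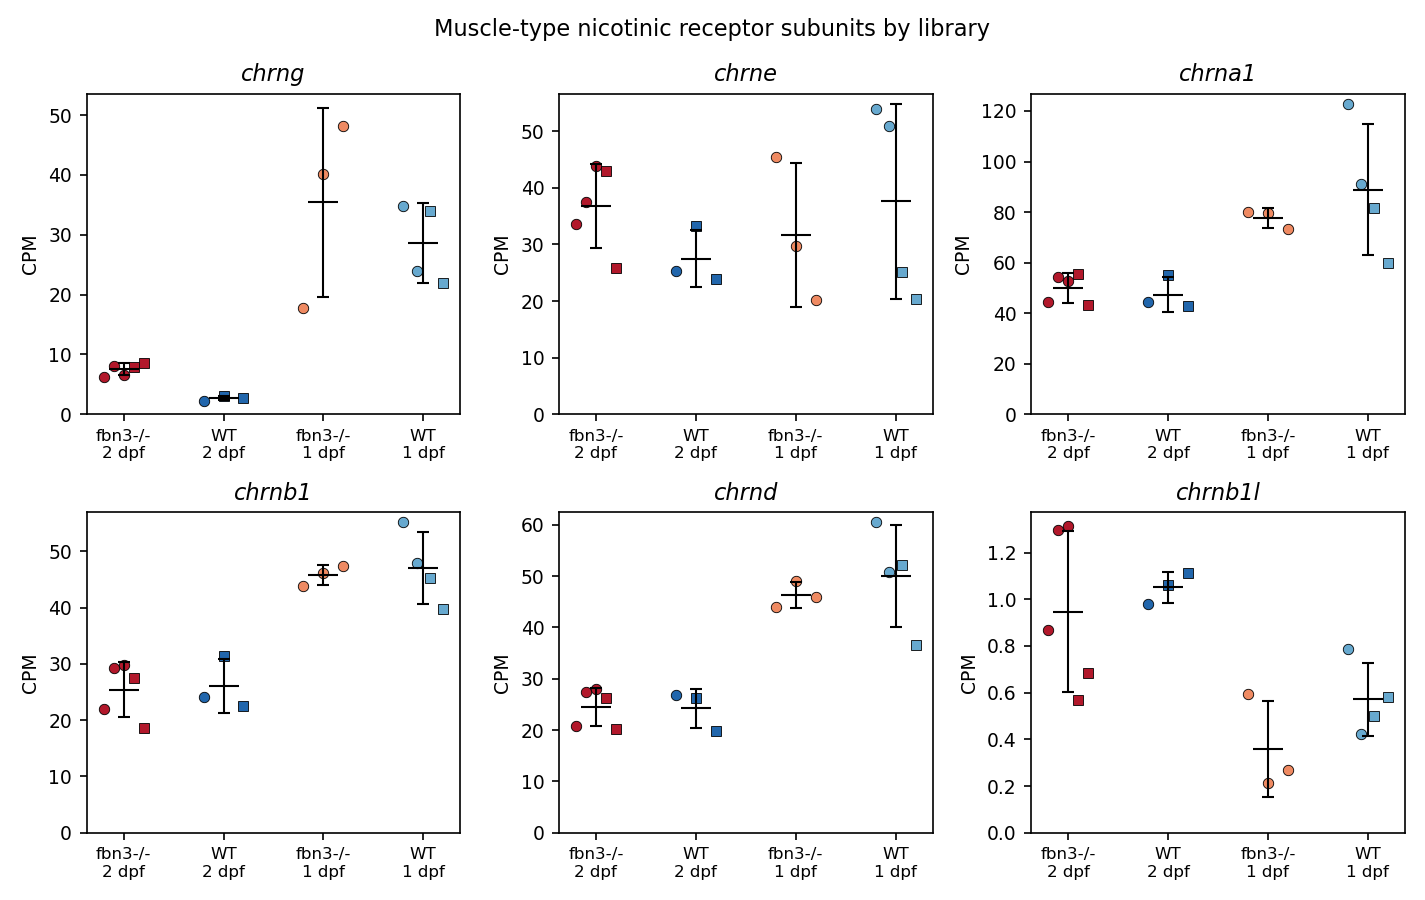
Level of each of the 6 muscle-type nicotinic subunits in every library, in CPM on the vertical axis of each panel, for fbn3-/- and WT at 2 dpf and fbn3-/- and WT at 1 dpf. Circles are lower-numbered and squares higher-numbered libraries, and bars give mean ± SD; in the chrng panel the 5 fbn3-/- libraries at 2 dpf lie between 6.30 and 8.59 CPM, all above the 3 WT libraries, while the chrna1, chrnb1 and chrnd panels show overlapping genotypes.

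At 1 dpf chrng was at a higher level in both genotypes and the genotypes overlapped. It had 17.8, 40.2 and 48.2 CPM in fbn3-/- at 1 dpf, against 34.8, 23.9, 34.0 and 21.996 CPM in WT, with a log2 fold change of 0.31 ± 0.25 (SE) that did not pass the test. Over all members 0 were called at 1 dpf, where 0.00425% of all genes were called, with 0 members higher and 2 lower at an unadjusted p under 0.05 (3.31% and 4.03% of all genes), and DESeq2 also called 0. The ratio of chrng to chrne was 0.393, 1.35 and 2.39 in fbn3-/- at 1 dpf, against 0.647, 0.469, 1.35 and 1.08 in WT (difference in log2 ratio 0.41, exact permutation p = 0.6). The mutant libraries at this stage spread widely in both genes: chrne had 45.4, 29.7 and 20.2 CPM in the same 3 libraries in which chrng had 17.8, 40.2 and 48.2 CPM. The test of whether the effect of the genotype differed between stages gave 1.17 ± 0.37 (SE) for chrng, with an unadjusted p of 0.00656 and an edgeR FDR of 0.889, so a difference between stages was not shown.

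Between stages, chrng fell in both genotypes. In fbn3-/- it averaged 7.49 ± 1.01 CPM at 2 dpf and 35.4 ± 15.7 CPM at 1 dpf (SD, n = 5 and 3), a log2 fold change of -2.24 ± 0.24 (SE) with an edgeR FDR of 1.69e-06. In WT it averaged 2.69 ± 0.387 CPM at 2 dpf and 28.7 ± 6.67 CPM at 1 dpf (SD, n = 3 and 4), a log2 fold change of -3.41 ± 0.30 (SE) with an edgeR FDR of 2.76e-07. Among the WT members called this was the largest fall. Within the library-number runs the log2 difference was -2.23 among lower-numbered fbn3-/- libraries, and -3.64 among lower-numbered and -3.24 among higher-numbered WT libraries. The log2 ratio of chrng to chrne changed by -2.39 in fbn3-/- and by -3.05 in WT, without overlap between the stages (exact permutation p = 0.0179 and 0.0286, adjusted 0.0625 and 0.0667). The partners moved less. In WT, chrna1, chrnb1 and chrnd had log2 fold changes of -0.91, -0.85 and -1.04, all with an edgeR FDR under 0.001, and only that of chrnd passed the bar of 1; in fbn3-/- they were -0.63, -0.85 and -0.92. The chrne transcript had 0.21 in fbn3-/- (edgeR FDR 0.574) and -0.45 in WT (0.248). The chrnb1l transcript went the other way, at 1.37 in fbn3-/-, where it was called, and 0.93 in WT. The chrnd call in WT sits at the bar, with fold changes from -1.17 to -0.92 over the alternatives, and was lost under 5 of them.

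**Figure D2:**
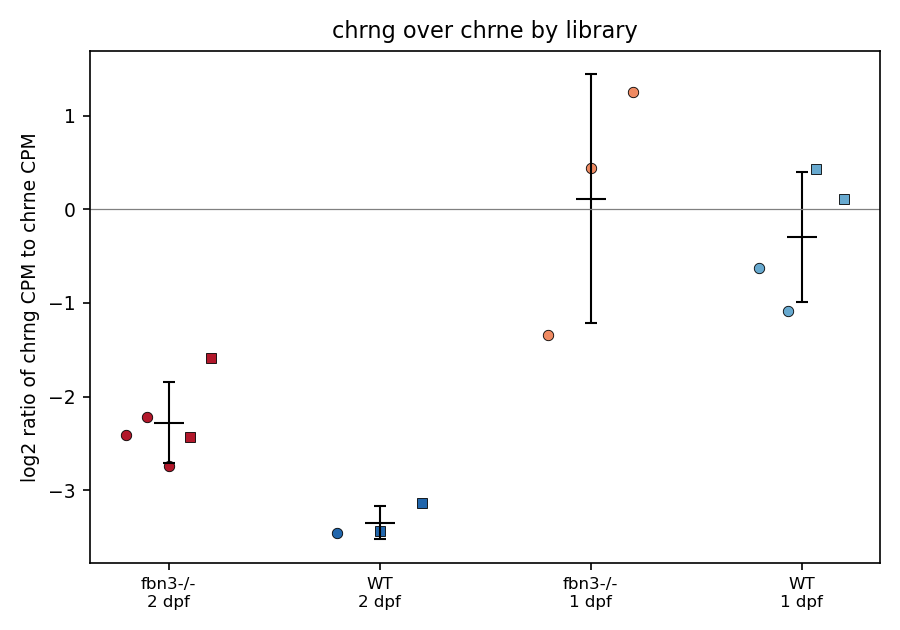
The log2 ratio of chrng CPM to chrne CPM in each library, for fbn3-/- and WT at 2 dpf and fbn3-/- and WT at 1 dpf, with mean ± SD; circles are lower-numbered and squares higher-numbered libraries. At 2 dpf the fbn3-/- libraries average -2.28 and the WT libraries -3.35 with no overlap, while at 1 dpf the genotypes overlap and the fbn3-/- libraries spread most.

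These values stand beside those of muscle as a whole. The summed level of 19 skeletal muscle marker genes was 47277 to 76595 CPM in fbn3-/- and 49806 to 63089 CPM in WT at 2 dpf, and 19734 to 34150 CPM in fbn3-/- and 21752 to 55724 CPM in WT at 1 dpf. Their median log2 fold change in fbn3-/- was 0.08 at 2 dpf, with 13 of 19 higher, and -0.52 at 1 dpf, with 17 of 19 lower; 0 were called at either stage. The summed level of the 6 muscle-type subunits was 117 to 162 CPM in fbn3-/- and 113 to 150 CPM in WT at 2 dpf. Of 10 genes asked for that assemble the neuromuscular junction, 3 were found and tested: rapsn, which clusters the receptor, had a log2 fold change of 0.33 in fbn3-/- at 2 dpf, musk, the receptor kinase of the synapse, 0.37, and agrn, the nerve-derived signal to musk, -0.24, and 0 of 3 were called. Between stages 1 of the 3, musk, was called lower in both genotypes, at -1.68 in fbn3-/- and -1.73 in WT. The part of muscle content in the chrng difference was not tested.

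Outside the muscle type, most receptor subunits were called higher at 2 dpf in both genotypes: 46 of 67 in fbn3-/- and 53 of 67 in WT, with 1 of 67 lower in either and medians of 1.88 and 1.81. Over all members in fbn3-/-, 47 (64.4%) were called higher and 2 (2.74%) lower, where 19.3% of all genes were called higher and 8.36% lower. In WT, 53 of the 73 members (72.6%) were called higher at 2 dpf and 3 (4.11%) lower, where 17.7% of all genes were called higher and 9.4% lower. The median member had a log2 fold change of 1.69 in fbn3-/- and 1.77 in WT, beside medians of 0.00 and -0.04 over all genes. Within the library-number runs the member median was 1.73 among lower-numbered fbn3-/- libraries, and 1.35 among lower-numbered and 1.91 among higher-numbered WT libraries. In 46 members the groups of fbn3-/- libraries did not overlap with 2 dpf higher, and in 54 members those of WT, where 29% and 25.7% of all genes did so. The reverse, 2 dpf lower without overlap, held for 6 members in either genotype, where it held for 27.3% of all genes in fbn3-/- and 24% in WT. Both genotypes shared 46 of the higher calls, 97.9% of those in fbn3-/- and 86.8% of those in WT, and both lower calls of fbn3-/- (chrng and chrna4a) were among the 3 of WT.

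Glutamate receptors rose most widely. Of 24 subunits, 21 were called higher in fbn3-/- and 22 in WT, with class medians of 2.04 and 1.83 for AMPA, 2.48 and 2.32 for NMDA and 2.39 and 2.61 for kainate receptors, in fbn3-/- and in WT. The largest rise of any member called in WT was that of grin1b, a copy of the subunit that every NMDA receptor needs. It had 41.8, 25.6, 30.0, 22.2 and 15.4 CPM in fbn3-/- at 2 dpf, against 1.68, 0.703 and 0.489 CPM in fbn3-/- at 1 dpf (log2 fold change 4.87). In WT it had 20.02, 33.1 and 30.9 CPM at 2 dpf, against 3.13, 1.35, 1.20 and 1.09 CPM at 1 dpf (4.08 ± 0.41, SE, edgeR FDR 8.28e-07). Every 2 dpf library of either genotype held over 4 times the highest 1 dpf value. Its duplicate grin1a averaged 57.8 ± 10.6 CPM at 2 dpf and 11.4 ± 2.68 CPM at 1 dpf in WT (SD, n = 3 and 4; 2.34).

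Among AMPA subunits, which carry the fast current of most excitatory synapses, gria2b led. The gria2 subunit makes the channel nearly closed to calcium once its transcript is edited. In fbn3-/- gria2b had 31.4, 24.4, 27.8, 21.4 and 13.8 CPM at 2 dpf, against 2.93, 1.44 and 0.728 CPM at 1 dpf (3.85). In WT it had 16.1, 25.5 and 22.4 CPM at 2 dpf, against 2.95, 1.85, 1.72 and 1.19 CPM at 1 dpf (3.47 ± 0.37, SE, edgeR FDR 1.61e-06). The stages were far apart in both. Its duplicate gria2a averaged 44.0 ± 4.84 CPM at 2 dpf and 8.30 ± 3.06 CPM at 1 dpf in WT (2.41; 2.83 in fbn3-/-). Of the kainate subunits, grik5, which forms high-affinity receptors with other kainate subunits, averaged 11.5 ± 1.20 CPM at 2 dpf and 1.84 ± 0.315 CPM at 1 dpf in WT (2.64 ± 0.22, SE, edgeR FDR 1.53e-07; 2.38 in fbn3-/-).

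Inhibitory receptors rose alongside. Of 20 GABA-A subunits 14 were called higher in fbn3-/- and 16 in WT, 0 lower in either. The class median was 1.76 in fbn3-/- and 1.74 in WT for the 4 beta subunits. For the 7 alpha subunits it was 2.57 in fbn3-/- and 1.35 in WT, but gabra6a and gabra6b had 3 counts or fewer in every fbn3-/- library at 1 dpf, and over the other 5 subunits the fbn3-/- median was 1.47. The delta subunit gabrd, known in mammals from receptors outside synapses, averaged 2.91 ± 0.596 CPM at 2 dpf and 0.559 ± 0.425 CPM at 1 dpf in WT (2.44; 2.97 in fbn3-/-).

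The beta subunit gabrb2a had 2.63, 1.88, 2.25, 1.60 and 1.60 CPM in fbn3-/- at 2 dpf, against 0.640, 0.550 and 0.249 CPM at 1 dpf (2.09). In WT it had 1.52, 2.71 and 2.58 CPM at 2 dpf, against 0.831, 0.301, 0.305 and 0.629 CPM at 1 dpf (2.26 ± 0.36, SE, edgeR FDR 7.91e-05). The stages did not overlap in either genotype. The zebrafish gene gabrz was lower in counts, at 0.662 ± 0.212 CPM in WT at 2 dpf and 0.138 ± 0.0725 CPM in WT at 1 dpf (2.19; 2.20 in fbn3-/-). The rho subunits, known in mammals from the retina, were also low in counts. Of 5, 2 were called higher in fbn3-/- and 3 in WT. The best measured, gabrr2b, averaged 0.862 ± 0.0885 CPM at 2 dpf and 0.382 ± 0.0819 CPM at 1 dpf in WT (1.21; 1.71 in fbn3-/-). The WT call of gabrr1 rested on raw counts of 2, 17 and 18 at 2 dpf, against 0, 2, 4 and 0 at 1 dpf; the stages overlapped, and the call (edgeR FDR 0.0393) was lost under 8 of 14 alternatives.

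For glycine receptors the counts were less alike between the genotypes. Of 7 subunits 3 were called higher in fbn3-/- and 6 in WT, with class medians of 0.97 and 1.84. The alpha subunit glra1, the main adult one of the mammalian spinal cord, had 30.5, 26.4, 27.8, 27.7 and 18.9 CPM in fbn3-/- at 2 dpf, against 2.53, 1.35 and 1.36 CPM at 1 dpf (3.93). In WT it had 20.6, 29.1 and 24.8 CPM at 2 dpf, against 3.67, 2.22, 2.35 and 1.33 CPM at 1 dpf (3.37 ± 0.26, SE, edgeR FDR 8.56e-08). The stages were clearly apart in either genotype. The zebrafish alpha subunit glra4a averaged 33.9 ± 9.73 CPM at 2 dpf and 12.9 ± 8.31 CPM at 1 dpf in WT (1.40; 2.00 in fbn3-/-), with wide spread at both stages, and without WT replicate 1 at 2 dpf its edgeR FDR was 0.0548.

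The 3 glycine subunits called in WT but not in fbn3-/- were glra2, glra4b and glrba, with log2 fold changes of 0.95, 0.97 and 0.58 in fbn3-/- and 2.06, 1.84 and 1.42 in WT. Over all members, 7 were called higher in WT and not in fbn3-/-; the others were chrna2b (0.80 in fbn3-/-, 1.40 in WT), gabra4 (0.62 and 1.35), gabrr1 (0.79 and 2.08) and gria1b (0.73 and 1.01). None of these differences was itself shown: the test of the genotype effect between stages called 0 of 73 members (0.00425% of all genes). At an unadjusted p under 0.05 it gave 1 member higher, chrng, and 1 lower, glra2 (-1.11 ± 0.43, SE, edgeR FDR 0.889), beside 3.22% and 2.29% of all genes.

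**Figure D3:**
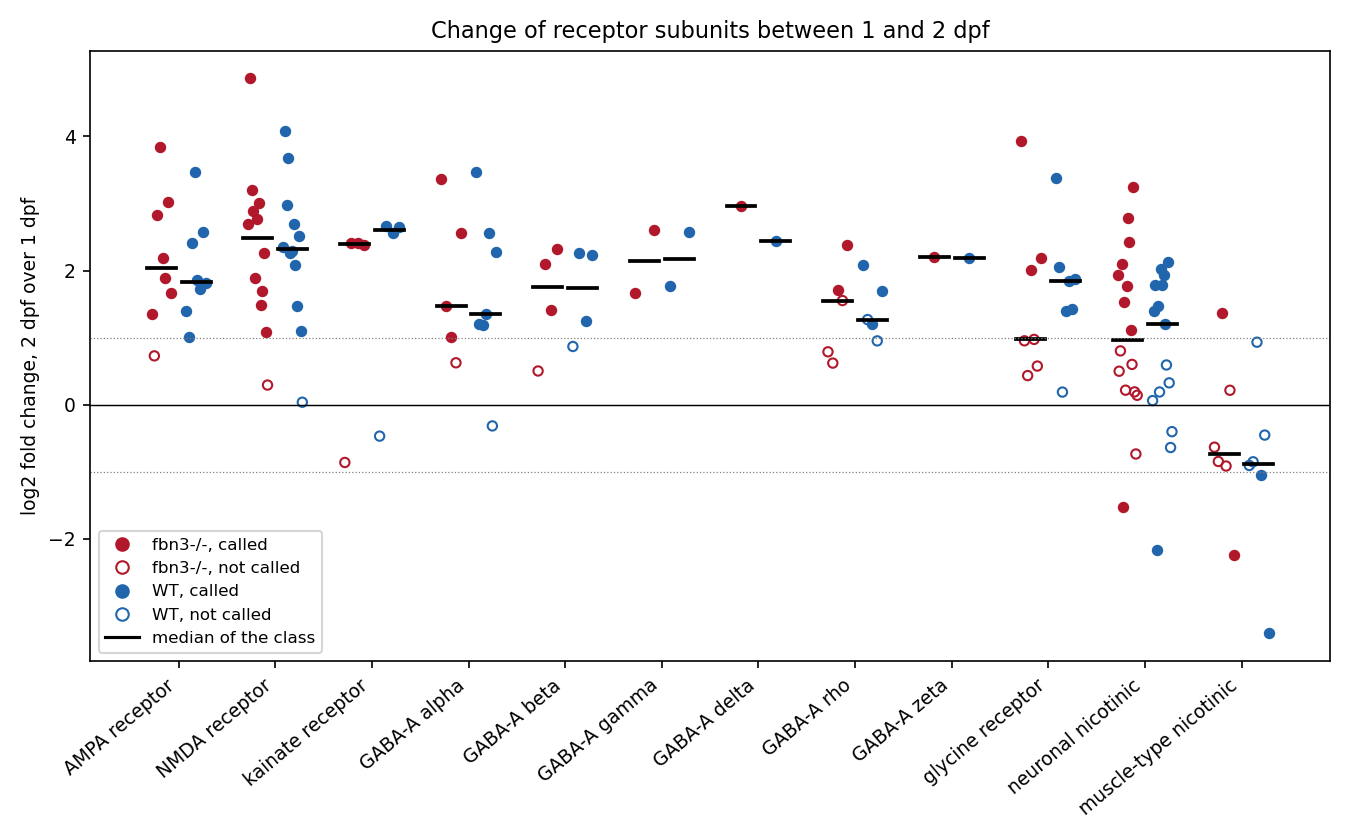
The log2 fold change of 2 dpf over 1 dpf for each member, by receptor class, in fbn3-/- and in WT; each point is a gene, filled where it was called, the black bar is the median of the members shown, and members with 3 counts or fewer in every library of a group compared are left out. Most points of the AMPA, NMDA, kainate and GABA-A classes lie above 1, and the muscle-type nicotinic class, with a median of -0.74 in fbn3-/- and -0.88 in WT, lies mostly below 0.

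Nicotinic subunits of the neuronal type were the most mixed. Of 16, 8 were called higher and 1 lower in fbn3-/-, and 9 higher and 1 lower in WT, with medians of 0.96 and 1.30 (1.21 in WT without chrna10a, which is at a few counts there). The beta subunit chrnb2, a partner in most heteromeric brain receptors of mammals, had 19.97, 16.4, 16.95, 15.1 and 13.98 CPM in fbn3-/- at 2 dpf, against 7.86, 6.74 and 8.16 CPM at 1 dpf (1.11). In WT it had 14.4, 18.7 and 19.2 CPM at 2 dpf, against 7.52, 7.003, 8.66 and 6.99 CPM at 1 dpf (1.21 ± 0.14, SE, edgeR FDR 4.15e-06). The stages did not overlap in either genotype. The subunit chrnb3b, an accessory subunit in mammals, had the largest rise of the class in WT among members above the count floor (2.12; 3.25 in fbn3-/-), from low counts. The chrna10a gene had 13, 17 and 13 counts in WT at 2 dpf, against 2, 2, 3 and 0 at 1 dpf, too few for a fold change.

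The 1 neuronal subunit called lower was chrna4a, one copy of the alpha4 subunit that pairs with beta2. It had 0.142, 0.193, 0.151, 0.109 and 0.148 CPM in fbn3-/- at 2 dpf, against 0.461, 0.474 and 0.319 CPM at 1 dpf (-1.52, edgeR FDR 0.000606). In WT it had 0.150, 0.0727 and 0.0713 CPM at 2 dpf, against 0.328, 0.533, 0.443 and 0.339 CPM at 1 dpf (-2.18 ± 0.36, SE, edgeR FDR 0.000108). The raw counts in WT were low, at 13, 7 and 10 at 2 dpf, against 15, 39, 32 and 14 at 1 dpf. The stages did not overlap in either genotype. The chrnb5a transcript also fell, by less than the bar of 1, with log2 fold changes of -0.74 in fbn3-/- (edgeR FDR 0.00499) and -0.64 in WT (0.0119). The duplicate of chrna4a, chrna4b, went the other way, with 1.83, 1.39 and 1.97 CPM in WT at 2 dpf, against 0.852, 0.397, 0.679 and 0.653 CPM at 1 dpf (1.47).

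Such splits between duplicates were compared for all 19 pairs, as the log2 ratio of the copies in each library. In WT, 9 of the 19 pairs did not overlap between stages in either direction. Among single genes, 25.7% lay higher and 24% lower at 2 dpf without overlap in WT, so such a count is common here. The share over other pairs of genes was not computed. For chrna4a and chrna4b the log2 ratio changed by -3.29 at 2 dpf over 1 dpf, for grik1a and grik1b by -2.95, for grin1a and grin1b by -1.78 and for gria2a and gria2b by -1.04 (exact permutation p = 0.0286 each, the smallest 3 libraries against 4 allow by this test). After adjustment over the 19 pairs the smallest p was 0.121, so none passed. The grik1 copies differed in kind: grik1b averaged 2.80 ± 1.62 CPM at 2 dpf and 0.427 ± 0.151 CPM at 1 dpf in WT and was called higher (2.67; 2.41 in fbn3-/-), while grik1a had 1.90, 2.13 and 1.63 CPM at 2 dpf, against 1.73, 3.38, 2.87 and 2.20 CPM at 1 dpf (-0.47).

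The rise between stages ran beside that of neurons in general. All 17 pan-neuronal markers were called higher at 2 dpf in both genotypes, with medians of 1.82 in fbn3-/- and 1.74 in WT. Of genes for the other side of the synapse, 5 of 5 for glutamate release were called higher in either genotype, with medians of 2.01 and 2.03. Of 12 genes for making and moving GABA and glycine, 8 were higher and 1 lower in either genotype (2.01 in fbn3-/- and 1.92 in WT). Of 11 genes of inhibitory scaffolds, which hold GABA-A and glycine receptors at the synapse, 8 were higher in either genotype (1.59 and 1.70). Of 41 genes of excitatory scaffolds and auxiliary proteins, 20 were higher and 1 lower in fbn3-/- and 21 higher and 2 lower in WT (0.96 and 1.01). Of 6 genes for making and breaking down acetylcholine, 3 were higher in fbn3-/- and 1 in WT (1.26 and 0.71). Of 27 other transmitter receptors, 18 were higher in either genotype (1.67 and 1.60). More neurons and more receptor transcript per neuron cannot be told apart here.

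Between genotypes at 2 dpf, 0 of the 67 members outside the muscle type were called; 47 had a lower mean in fbn3-/- and 20 a higher one, with a median of -0.09. Over all 73, 49 (67.1%) were lower, where 48.4% of all genes were, with a median of -0.09 against 0.01 over all genes. The share did not hold up within the library-number runs: 11 of 73 members were lower in fbn3-/- among lower-numbered libraries (median 0.33, 3 libraries against 1), and 62 of 73 among higher-numbered ones (median -0.50, 2 against 2). Over all 2 dpf libraries, pan-neuronal markers had a median of -0.19 in fbn3-/-, with 16 of 17 lower and 0 called. Within the runs they moved the same way as the members, at 0.19 among lower-numbered and -0.53 among higher-numbered libraries. The median over all genes was 0.03 and 0.00 there. Library by library, the summed level of the 67 members was 644, 510, 558, 454 and 336 CPM in fbn3-/-, against 429, 563 and 526 CPM in WT. The mutant library highest for the members (replicate 1) was also the highest for pan-neuronal markers, at 2734 CPM, and the lowest (replicate 5) the lowest, at 1863 CPM. The part of neuron content in these small shifts was not tested.

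**Figure D4:**
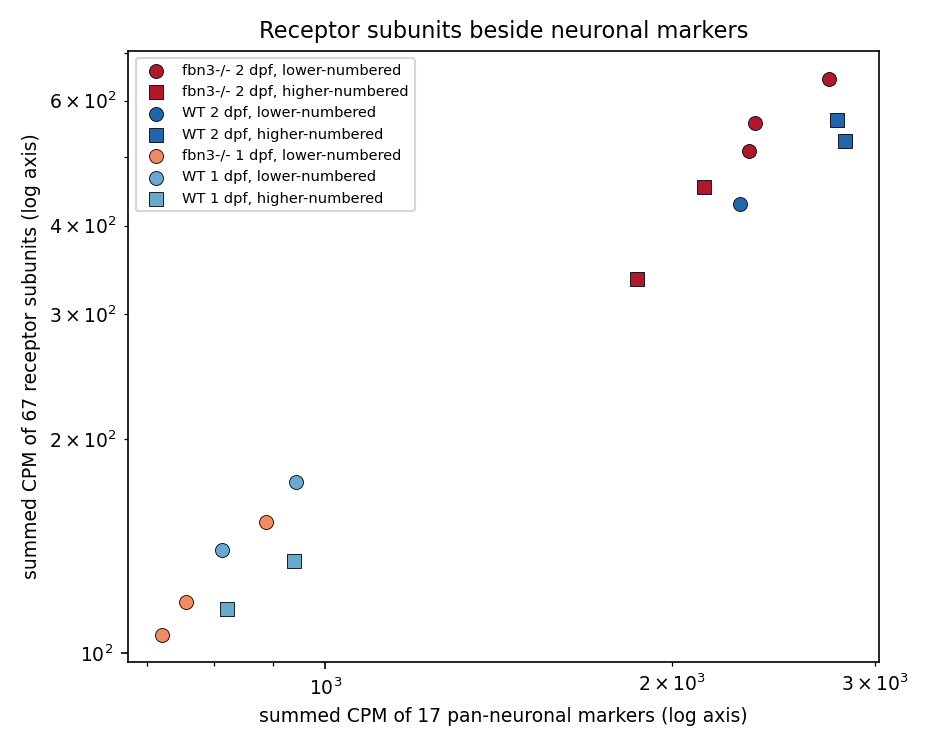
Summed CPM of the 67 members outside the muscle type plotted against the summed CPM of 17 pan-neuronal markers, each point a library of fbn3-/- or WT at 2 or 1 dpf, circles for lower-numbered and squares for higher-numbered libraries. The 2 dpf libraries lie at 336 to 644 CPM on the member axis and the 1 dpf libraries at 106 to 174 CPM, and within the fbn3-/- libraries at 2 dpf replicate 1 is highest and replicate 5 lowest on both axes.

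At an unadjusted p under 0.05, 1 member was higher (chrng) and 2 were lower in fbn3-/- at 2 dpf, beside 6.19% and 4.19% of all genes. The accessory subunit chrna5 had 4.69, 4.18, 4.43, 4.90 and 3.24 CPM in fbn3-/-, against 5.11, 5.91 and 5.504 CPM in WT (-0.36 ± 0.14, SE, edgeR FDR 0.387). The chrnb5a transcript had 0.781, 0.856, 0.754, 0.910 and 0.806 CPM in fbn3-/-, against 1.05, 1.42 and 1.03 CPM in WT (-0.48 ± 0.19, SE, edgeR FDR 0.4). Neither overlapped between genotypes, and neither passed the test over all genes. The chrnb3b transcript had 0.408, 0.373, 0.411, 0.332 and 0.417 CPM in fbn3-/-, against 0.461, 0.530 and 0.492 CPM in WT (-0.38). With it, 3 members lay lower without overlap and 1 higher, where 2.45% and 3.74% of all genes did.

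Other members that the naming rule picked out at 2 dpf overlapped between genotypes. The NMDA subunit grin2bb had 12.5, 8.87, 8.95, 7.98 and 5.83 CPM in fbn3-/-, against 8.89, 13.4 and 13.3 CPM in WT (-0.44). The NMDA subunit grin2da had 9.30, 7.62, 7.80, 5.31 and 5.46 CPM in fbn3-/-, against 7.90, 9.18 and 8.81 CPM in WT (-0.29). The glycine subunit glra2 had 2.79, 1.62, 1.55, 1.57 and 1.32 CPM in fbn3-/-, against 1.76, 2.75 and 2.55 CPM in WT (-0.45). In glra2 and grin2bb fbn3-/- replicate 1 stood above the other mutant libraries. The log2 differences of grin2bb, grin2da and glra2 changed sign between the library-number runs. They were 0.16, 0.05 and 0.12 among lower-numbered libraries (3 fbn3-/- and 1 WT). Among higher-numbered ones (2 and 2) they were -0.96, -0.74 and -0.87. On the higher side were chrna4a (0.59), gabrr2a (0.48), chrne (0.42) and chrna7 (0.33), the last a subunit that forms receptors of its own, at 1.31, 0.925, 1.67, 1.01 and 0.564 CPM in fbn3-/-, against 0.772, 0.759 and 1.02 CPM in WT.

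At 1 dpf, 50 of 73 members (68.5%) were lower in fbn3-/-, where 55.1% of all genes were, with a median of -0.15 against -0.03 over all genes. Among lower-numbered libraries, the run that holds both genotypes at this stage, 51 of 73 (69.9%) were lower, with a median of -0.20. There 53.5% of all genes were lower, with a median of -0.02, and 16 of 17 pan-neuronal markers, with a median of -0.23. These libraries are part of the full comparison, so this is no separate check. Over all 1 dpf libraries, pan-neuronal markers had a median of -0.20 with 15 of 17 lower. They summed to 722 to 888 CPM in fbn3-/- and 814 to 943 CPM in WT. At an unadjusted p under 0.05, 2 members were lower. The chrna5 transcript had 3.90, 3.20 and 3.99 CPM in fbn3-/-, against 5.11, 5.07, 4.83 and 4.28 CPM in WT (-0.38 ± 0.16, SE, edgeR FDR 0.654). The chrnb3b transcript had 3, 0 and 6 raw counts in fbn3-/-, against 8, 5, 6 and 7 in WT (edgeR FDR 0.665). Without overlap, 5 members lay lower, chrna5, chrnb3b, gabrr3b and gria3b among them, and 1 higher (glrba, 0.95 ± 0.48, SE), where 2.99% and 2.89% of all genes did.

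In CPM, the 2 members chrna5 and chrnb3b were thus lower in fbn3-/- without overlap at both stages, which share no library. Over all genes 0.0976% were, and 0.229% were higher without overlap at both stages, against 0 members. For chrnb3b at 1 dpf the separation rests on a few reads. Its raw counts, 3, 0 and 6 in fbn3-/- against 8, 5, 6 and 7 in WT, overlapped before scaling. The fitted chrna5 difference was -0.36 at 2 dpf and -0.38 at 1 dpf, and did not pass the test over all genes at either stage. Within the library-number runs its size varied. At 2 dpf it was -0.21 among lower-numbered and -0.51 among higher-numbered libraries, and at 1 dpf -0.47 among lower-numbered ones. Among the remaining members named at 1 dpf, chrna2b had 3.59, 2.77 and 1.90 CPM in fbn3-/-, against 1.99, 2.97, 0.775 and 0.581 CPM in WT (0.74). The glycine subunit glra2 had 0.774, 0.719 and 1.13 CPM in fbn3-/-, against 0.350, 0.752, 0.526 and 0.581 CPM in WT (0.66). Their genotypes overlapped, as did those of grin1b (-0.84), chrnb5a (-0.39), gabrr2a (1.13) and grin2da (0.31). The gabra6a gene had 0, 2 and 0 raw counts in fbn3-/-, against 0, 0, 25 and 4 in WT, and 25 of its 29 WT counts came from 1 library.

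**Figure D5:**
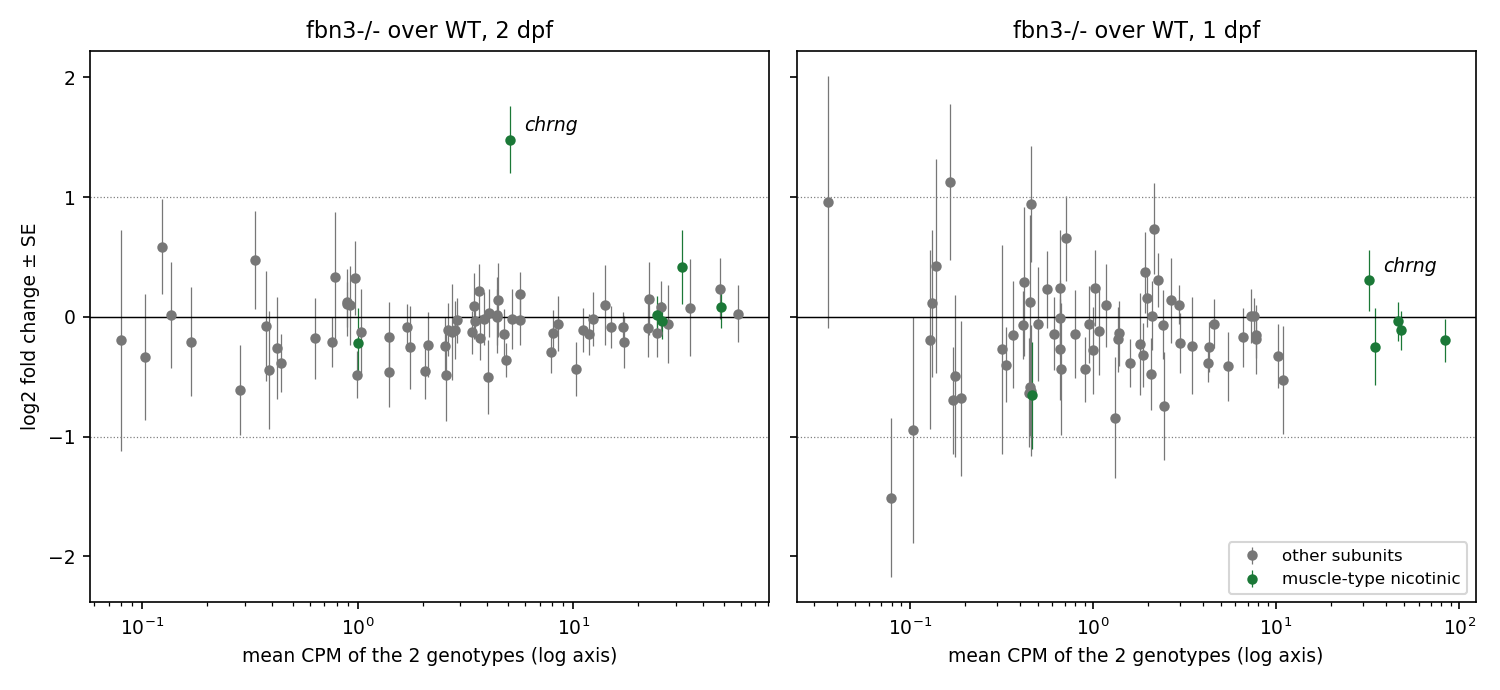
The log2 fold change of fbn3-/- over WT for each member at 2 dpf and at 1 dpf (vertical axis, with SE bars), against its mean CPM over both genotypes on a log axis, muscle-type nicotinic subunits in green and the others in grey; dotted lines mark 1 in either direction, and members with 3 counts or fewer in every library of a group compared are left out. At 2 dpf chrng, at 1.48, is the 1 gene called, and most members lie within 0.5 of 0.

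The other genes of transmission were likewise not called between genotypes: 0 genes of any list passed at either stage. At 2 dpf the median log2 fold change in fbn3-/- was -0.11 for glutamate release, 0.02 for making and moving GABA and glycine, 0.05 for acetylcholine, 0.02 for excitatory and -0.04 for inhibitory scaffolds, and -0.19 for the other transmitter receptors, of which 22 of 27 were lower. The acetylcholine genes included ache, the enzyme that breaks the transmitter down, at -0.12, and chata, the enzyme that makes it, at 0.24.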

How the data were processed

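The authors deposited 1 table of raw gene counts, made per the labels from reads trimmed with Trim Galore 0.6.6, checked with FastQC 0.11.9, aligned to GRCz11 with STAR 2.7.6a and counted with featureCounts (Subread 2.0.0); the strand setting of the counting and the handling of shared reads are not given in the sources used here. Of 23 count columns 15 were matched by library name and used, and 8 were not used; 1 of the 16 samples, the third WT replicate of 1 dpf, could not be tied to a column by name and was not analysed here. Tests were run on the counts with edgeR 4.0.16 (limma 3.58.1, R 4.3.3): filterByExpr (minimum count 10), TMM scaling and the quasi-likelihood test on 1 model of the 4 groups, with Benjamini-Hochberg adjustment over 23555 genes. Contrasts were fbn3-/- over WT at each stage, their difference, and 2 dpf over 1 dpf in each genotype. CPM are counts scaled by library size and TMM factor. Single genes and duplicate pairs were tested by exact two-sided permutation on log2 CPM with a prior count of 2. The ratios of muscle-type subunits were tested in the same way on the log2 ratio of CPM, without a prior count. Intervals are 95%. Members with 3 counts or fewer in every library of a group are given as counts, though their fitted values stay in counts of calls and medians. The pipeline was also run on simulated counts, with changes set only in fbn3-/- at 2 dpf. These held no stage or library-number effect, so they cannot show how the calls fare under either.

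Members named with values were those with an FDR under 0.05 between genotypes, the 5 with the lowest p in each direction, the largest rise and fall called per class in WT, the member with the most counts per class, and all muscle-type subunits; grin1a, gria2a, grik1a, chrna4b and members counted by name were added after their values were seen, and some members that the rule named are not reported here. The members and lists were chosen with earlier results of these data known. Alternatives were other scalings (RLE, upper quartile), DESeq2 1.42.0, edgeR's likelihood ratio test, other filters, a replicate block, the library-number run as a covariate or alone, 2-group fits and leaving out each library; those on ratios, duplicates and marker medians, and the overlap of both stages, were added after seeing the data. Figures were drawn with matplotlib 3.10.9.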

Additional observations from a re-analysis of the deposited data

Results flagged for a closer look

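Of 70 groups of 4 or 5 libraries checked over 35 named members, 2 held a library set apart from its group by a large gap, where chance gives about 1 in 20 groups, or 3.5. The glycine subunit glra2 had 2.79 CPM in fbn3-/- replicate 1 at 2 dpf, and the nearest of the other 4 libraries of that group had 1.62 CPM. The NMDA subunit grin1b had 3.13 CPM in WT replicate 1 at 1 dpf, and the nearest of the other 3 had 1.35 CPM.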

How the results depend on the processing

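Over 63 single-gene results and 1128 alternative values, 1050 counted as the same, 37 moved, 20 lost the call, 5 gained it and 16 changed sign. For a refit, the same means that direction and side of the threshold were kept. Within a library-number run it means a value within the gene's SD between libraries of the main value. Moved means a value further off within a run, whatever its sign. The 16 sign changes all come from refits. The counts of members called between stages were 48 to 51 in fbn3-/- and 48 to 54 in WT with 1 library left out, and 0 members were called at 1 dpf or for the difference between stages under every alternative run. The count at 2 dpf was 0 to 1 with 1 library left out, and 0 with a replicate block, where the edgeR FDR of chrng was 0.0647; chrng kept its call in 11 of 17 fits, with FDR from 2.46e-05 to 0.255. The deviations of same-numbered libraries had correlations of 0.16 and 0.02 at 1 dpf, and -0.03, -0.16 and -0.11 at 2 dpf. With so few pairs, this cannot show whether the replicate numbers pair the libraries. The median of members between genotypes at 2 dpf was 0.33 in lower-numbered and -0.50 in higher-numbered libraries. The WT median between stages was 1.35 in lower-numbered ones. The cause was not tested. Between genotypes at 2 dpf, 11 of 73 members were lower in fbn3-/- among lower-numbered libraries and 62 of 73 among higher-numbered ones. A change of sign between these runs was thus common, and the members named next are examples. Between genotypes at 2 dpf chrna7 was 0.70 in lower-numbered and -0.21 in higher-numbered libraries, and gabrr2a 1.05 and -0.20. The same held for glra2, grin2bb and grin2da, and for chrnb1l (0.22 and -0.78) and chrnb1 (0.15 and -0.23). Between stages in WT chrne was -1.05 and 0.31. The sign changes listed next are those of the other alternatives. Signs changed in results that had not passed the test: chrnd at 2 dpf was -0.00284 with RLE, -0.00374 with upper-quartile scaling, -0.00431 with DESeq2, -0.0211 without the filter, -0.0368 with the library-number covariate and -0.11 to 0.092 with 1 library left out; chrnb1 at 2 dpf was 0.063 with the replicate block and -0.13 to 0.099 with 1 library left out, and at 1 dpf -0.11 to 0.039; chrnb1l at 2 dpf was 0.066 with the block; chrne between stages in fbn3-/- was -0.030 to 0.56; and the log2 ratio of chrng to chrne between genotypes at 1 dpf was -0.16 to 1.14. At 2 dpf that ratio differed by 0.90 to 1.19, and the duplicate pairs that did not overlap in WT numbered 9 to 11. Depth limits the rho subunits, gabra6a, gabra6b, chrna10a, chrna4a and chrnb3b most.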

Other observations

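In the gene order of the RefSeq annotation of GRCz12tu, used for names and neighbours only, 70 of 73 members were matched and 25 lay in 12 clusters of adjacent members. Some neighbours differed between stages in WT: chrna6 had a log2 fold change of 2.02 beside -0.64 for chrnb5a, chrnb3b 2.12 beside -0.40 for chrnb5b, and chrnb1l 0.93 beside -0.85 for chrnb1. These pairs were chosen after their values were seen, and others moved together, such as gabrb4 (2.23) and gabra3 (1.19).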
